A study of Mus musculus with 2 samples.

Results

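The genes described here encode the enzymes that add methyl groups to, or remove them from, the lysines of histones H3 and H4, with the subunits that the H3K4 methyltransferases share. The set was fixed by name as 43 genes and was sorted by target residue. Of these, 41 genes were read by at least 1 probe set annotated to that gene alone, out of 18193 genes read in this way, and Ash1l and Suv39h1, without such a probe set, are not analysed here. The 41 genes had 118 probe sets, of which 88 were above the level filter described below. The annotation lists Setd8, Suv420h1, Suv420h2 and Whsc1 under the newer symbols Kmt5a, Kmt5b, Kmt5c and Nsd2.

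RNA came from 2 mouse embryonic stem cell cultures, 1 labelled MOF-/- (Mof null) and 1 labelled MOF +/+ (wild type). Both lines were C57BL/6, were derived at 3.5 days post coitum and were used at passage 15 to 18. They had been kept on mouse embryonic fibroblast feeders with LIF, and were passaged without feeders before RNA was taken. The labels name no other treatment, and they do not state how Mof was inactivated. Mof, listed under the symbol Kat8, is an enzyme that acetylates histone H4. Each culture was hybridised to 1 Affymetrix array, so the differences carry neither replicate error nor test, and the number of arrays limits the precision.

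Values are the authors' RMA values on a log2 scale, which ran from 2.85 to 14.67 on the array labelled Mof null and from 2.77 to 14.65 on the array labelled wild type. Differences are Mof null minus wild type, so a positive one is a higher value on the array labelled Mof null. A gene is represented by its probe set with the highest mean, and a gene or probe set counts as expressed when the higher of its values reaches 6.02, the median of all values. All 41 genes passed this filter. A difference between probe sets of the same gene is the one spread these data hold. Its pooled SD was 0.33 over 5362 genes with several expressed probe sets, and 0.35 over the 25 such genes of the present set. This spread holds no variation between cultures of the same genotype, so exceeding it does not show a difference between genotypes. Kat8 itself read 8.37 on the array labelled Mof null and 8.06 on the array labelled wild type. The position of its probe set relative to the inactivated part of the gene is unknown here, so these values check neither label. The names Mof null array and wild-type array stand for what the labels say.

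The cultures also differed in other cell type markers. All 13 embryonic stem cell markers were higher on the Mof null array, with a median difference of 0.74. Among them Pou5f1, the gene of Oct4, read 12.74 on the Mof null array and 12.22 on the wild-type array. All 24 fibroblast markers found were lower, with a median of -1.96. They ran from -2.92 for the collagen gene Col1a1 to -0.76 for the fibronectin gene Fn1, and all 24 stayed above the level filter on both arrays. The summed linear level of these 24 was 15.63 log2 units on the Mof null array and 17.25 on the wild-type array. All 12 macrophage markers were lower too, with a median of -2.14, and among those above the level filter on both arrays they ran from -2.37 for Tyrobp to -0.13 for Laptm5. Of the 12, 10 were above the filter on the Mof null array, where Ptprc and Itgam were not, and 12 on the wild-type array, with a summed level of 12.37 log2 units on the Mof null array and 14.18 on the wild-type array. In bulk RNA, fewer cells of a type and less RNA per cell cannot be told apart, and the part of these markers in the differences below was not tested.

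Histone lysine methylation is written by SET domain proteins, and for H3K79 by the unrelated enzyme Dot1l. It is erased by flavin-dependent amine oxidases of the Kdm1 family and by JmjC domain oxygenases, which need iron, oxygen and 2-oxoglutarate. H3K4 methylation marks active promoters and enhancers, H3K36 and H3K79 methylation the bodies of transcribed genes, and H3K9 and H4K20 trimethylation heterochromatin. In embryonic stem cells, many promoters of developmental genes carry H3K4 methylation together with H3K27 trimethylation, and several of these enzymes are needed for differentiation.

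Most of the genes read higher on the Mof null array, by small amounts. Of 41 genes, 32 (78.0%) had a positive difference and 9 a negative one, against 56.7% positive among all 12015 expressed genes. None was at least 2-fold higher, where 5.09% of all expressed genes were, and 1 was at least 2-fold lower (2.44%), where 11.9% of all expressed genes were. At 1.5-fold, 10 genes (24.4%) were higher, against 17.3% of all expressed genes, and 2 (4.88%) were lower, against 19.2%. The order on the higher side depended on the setting: centring gave 9.76% of the set against 13.0% of all expressed genes, trend correction 9.76% against 13.3%, and the mean of all probe sets 15.4% of the 39 genes it kept against 15.3%. The other 29 genes lay within 1.5-fold. The median difference was 0.35 (SD over genes 0.46, n = 41 genes), against 0.10 over all expressed genes and 0.74 over the stem cell markers. Centring on the median expressed gene subtracts 0.10 from every gene and left 27 positive, and correcting the trend with level left 28. Relative to the median of the stem cell markers, an added scaling, chosen with the data in view, that subtracts 0.74, only Suv39h2, Wdr5 and Kdm7a stayed positive.

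**Figure D1:**
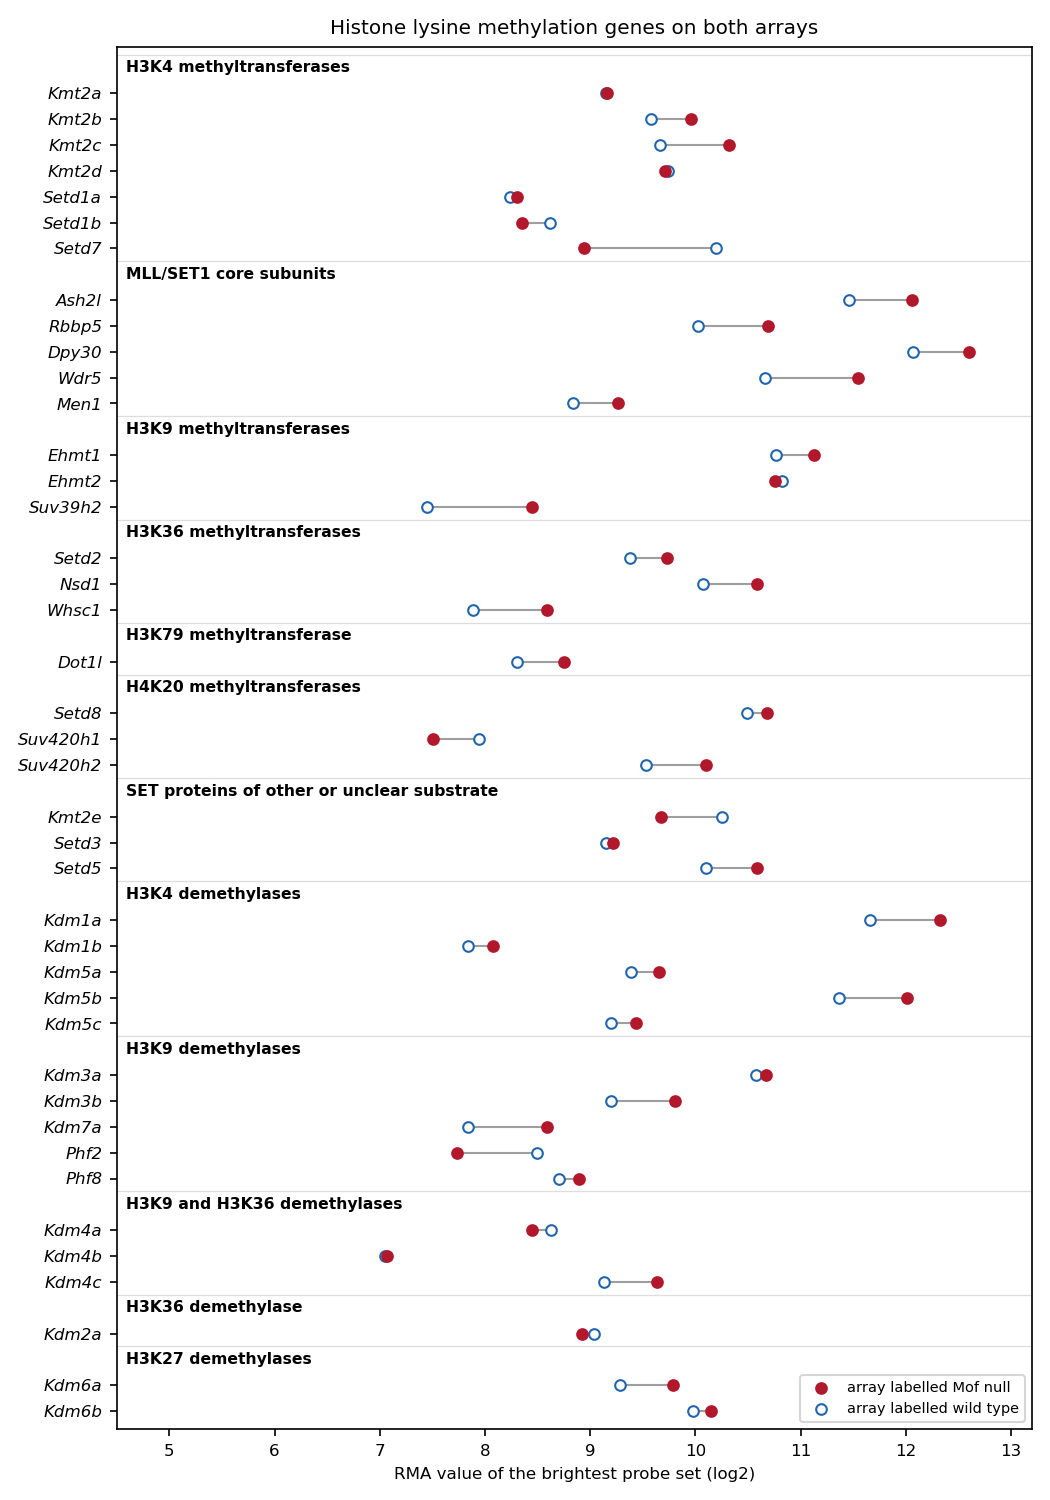
RMA values (log2) of the brightest probe set of 41 genes, grouped by target residue, on the Mof null array (filled red) and the wild-type array (open blue), with 1 array each and no error bars. The red point lies to the right for 32 genes, among them all 5 shared subunits and all 5 H3K4 demethylases, and Setd7 has the longest line to the left.

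**Figure D2:**
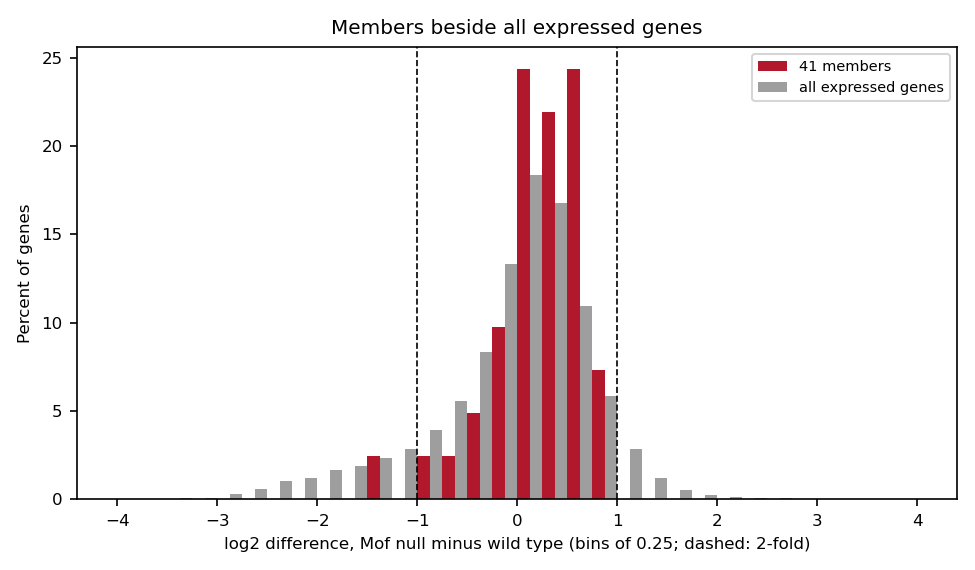
Percent of genes in bins of 0.25 log2 units of the difference (Mof null minus wild type), for the 41 genes (red) and all 12015 expressed genes (grey), with dashed lines at 2-fold. The 41 genes gather between 0 and 1, while the lower tail of all genes, 11.9% of which were past 2-fold, holds 1 of them.

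The promoters of the genes at the ends of this range are shown because the difference of each was the largest of its kind: Suv39h2 for the positive side, Wdr5 for the shared subunits and Setd7 for the negative side. Each is the 300-base RefSeq window on GRCm38.p6 from 250 bases before to 50 bases after the annotated start, read 5′ to 3′ on the gene's strand. The Suv39h2 window lies at chr2:3474937-3475236 on the minus strand and holds 33 CpG dinucleotides, Wdr5 at chr2:27514897-27515196 on the plus strand with 22, and Setd7 at chr3:51560774-51561073 on the minus strand with 21. Capitals mark the CpG dinucleotides, the sequence that the CXXC domains of Kmt2a, Kmt2b and Kdm2a bind when it is unmethylated.
Suv39h2: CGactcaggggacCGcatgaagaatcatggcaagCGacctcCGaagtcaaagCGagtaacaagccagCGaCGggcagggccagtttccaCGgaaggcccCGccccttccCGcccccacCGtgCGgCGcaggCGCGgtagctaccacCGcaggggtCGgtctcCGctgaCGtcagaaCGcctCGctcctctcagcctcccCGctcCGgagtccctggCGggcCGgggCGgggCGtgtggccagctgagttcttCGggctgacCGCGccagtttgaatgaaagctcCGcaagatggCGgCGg
Wdr5: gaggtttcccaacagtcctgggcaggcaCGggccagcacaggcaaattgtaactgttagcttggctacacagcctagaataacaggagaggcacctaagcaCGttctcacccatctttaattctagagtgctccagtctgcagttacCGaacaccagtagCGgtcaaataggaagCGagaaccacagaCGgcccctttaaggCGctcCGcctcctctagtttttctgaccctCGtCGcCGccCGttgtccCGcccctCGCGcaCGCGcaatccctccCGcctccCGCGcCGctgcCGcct
Setd7: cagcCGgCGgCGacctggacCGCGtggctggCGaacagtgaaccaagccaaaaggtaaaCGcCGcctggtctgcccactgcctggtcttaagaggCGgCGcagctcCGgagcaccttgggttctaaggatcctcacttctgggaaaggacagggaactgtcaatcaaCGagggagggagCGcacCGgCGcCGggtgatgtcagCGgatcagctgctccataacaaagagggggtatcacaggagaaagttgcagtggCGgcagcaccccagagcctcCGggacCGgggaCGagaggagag

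CpG content was also counted over the whole set. The RefSeq table matched 30 of the 41 genes, with 43 windows. A ratio of observed to expected CpG of at least 0.6 was found in 37 of the 43 (86.0%), in 68.6% of 12447 windows of expressed genes and in 35.8% of all 32851 windows. The median ratio was 0.88 in the windows of the set, 0.75 in those of expressed genes and 0.38 in all. The GC box GGGCGG, searched on both strands and itself holding a CpG, was in 69.8% of the windows, in 62.6% of those of expressed genes and in 35.7% of all. The TATA box TATAAA was in 0 of 43, in 7.42% of the windows of expressed genes and in 13.6% of all. A match is a run of letters and does not show that a factor binds there.

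The subunits shared by the MLL and SET1 complexes were all higher on the Mof null array. Wdr5, the propeller protein that presents the histone tail, read 11.55 on the Mof null array and 10.66 on the wild-type array, a difference of 0.89 or 1.85-fold. It is also a subunit of the NSL complex that contains Mof. Its second probe set read 9.76 (Mof null) against 9.10 (wild type), a difference of 0.66, so both lay on the same side. Rbbp5, which joins Ash2l in activating the SET domain, read 10.69 on the Mof null array and 10.03 on the wild-type array (difference 0.66). Ash2l read 12.06 (Mof null) against 11.46 (wild type), a difference of 0.60 on its brighter probe set and 8.62 (Mof null) against 8.29 (wild type), a difference of 0.34 on the other. Probe sets of the same gene thus differed in size by about as much as the pooled spread. Dpy30, which docks on Ash2l, read 12.60 on the Mof null array and 12.07 on the wild-type array (0.53). Men1, the gene of menin, which is found in the Kmt2a and Kmt2b complexes, read 9.26 (Mof null) against 8.84 (wild type), a difference of 0.42, with differences of 0.62 and 0.021 on its other probe sets. The median of the 5 subunits was 0.60, with differences from 0.42 to 0.89. They remained positive after centring and after trend correction, whereas 1 of 5 was positive relative to the stem cell markers.

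The catalytic H3K4 methyltransferases did not share one direction. Kmt2c, which monomethylates H3K4 at enhancers, read 10.3 on the Mof null array and 9.66 on the wild-type array, a difference of 0.65. All 4 of its expressed probe sets were positive, between 0.35 and 0.65. Its close relative Kmt2d read 9.71 on the Mof null array and 9.74 on the wild-type array, a difference of -0.027. Kmt2b, which acts at CpG-rich and bivalent promoters, read 9.96 (Mof null) against 9.58 (wild type), a difference of 0.38. Kmt2a, the MLL1 gene, read 9.16 (Mof null) against 9.15 (wild type), and its probe sets differed by 0.011 and 0.042. Kmt2a, Kmt2d and Setd1a lay so close to 0 that their sign changed with the setting: Kmt2a and Setd1a turned negative on centring, and Kmt2d turned positive when all probe sets were averaged. Setd1a and Setd1b are the catalytic subunits of the SET1 complexes, which make most H3K4 trimethylation. Setd1a read 8.30 on the Mof null array and 8.24 on the wild-type array (0.061). Setd1b read 8.35 (Mof null) against 8.62 (wild type), with differences of -0.27 and -0.34 on its probe sets, both on the lower side.

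Setd7 was the single gene of the set that was lower by 2-fold or more. It encodes a monomethyltransferase described for H3K4 and for many proteins other than histones. Its expressed probe set read 8.94 on the Mof null array and 10.20 on the wild-type array, a difference of -1.25 or 2.38-fold. Its other probe set read 5.76 on the Mof null array and 5.37 on the wild-type array, under the level filter on both, with a difference of 0.39. The mean of both probe sets was -0.43, so the 2-fold call rests on 1 probe set. On the same arrays the 24 fibroblast markers had a median of -1.96, and the part of fibroblast RNA in the Setd7 difference was not tested. The median over the 7 H3K4 methyltransferases was 0.011, from -1.25 for Setd7 to 0.65 for Kmt2c.

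**Figure D3:**
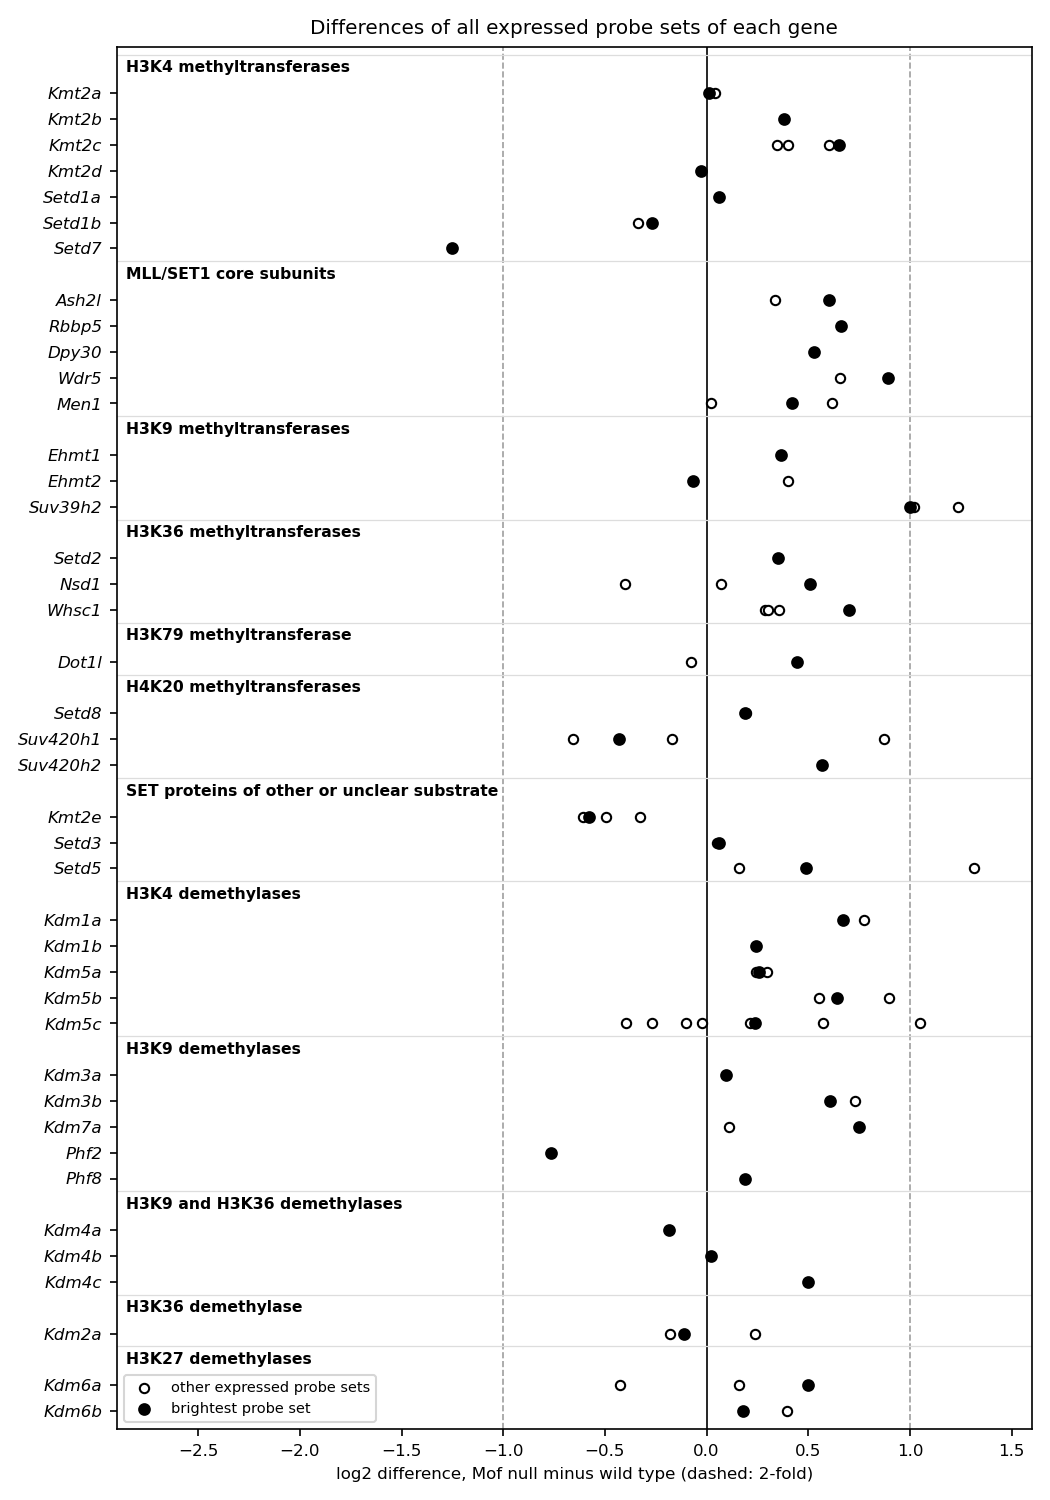
Log2 differences (Mof null minus wild type) of all 88 expressed probe sets of the 41 genes, with the brightest probe set of each gene filled and the others open, and dashed lines at 2-fold. The 3 Suv39h2 probe sets sit between 0.999 and 1.24 and the 4 Kmt2e probe sets between -0.61 and -0.33, while the 8 of Kdm5c spread from -0.39 to 1.05.

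Suv39h2 had the largest positive difference and was read alike by 3 probe sets. Its protein, like that of Suv39h1, trimethylates H3K9 at pericentromeric heterochromatin. Its brightest probe set read 8.45 on the Mof null array and 7.45 on the wild-type array, a difference of 0.999 and thus just under the 2-fold rule. The other probe sets read 8.37 (Mof null) against 7.35 (wild type) and 8.37 (Mof null) against 7.14 (wild type), with differences of 1.02 and 1.24, which pass it. The count of genes at least 2-fold higher is therefore 0 or 1 depending on how the probe sets of this gene are joined. It was also 1 after quantile normalization, where Suv39h2 differed by 1.07. The remaining H3K9 enzymes, Ehmt1 and Ehmt2, form a heterodimer that dimethylates H3K9 in euchromatin. Ehmt1 read 11.13 on the Mof null array and 10.76 on the wild-type array (0.36). Ehmt2 read 10.76 (Mof null) against 10.83 (wild type), a difference of -0.066 on its brighter probe set and 7.14 (Mof null) against 6.74 (wild type), a difference of 0.40 on the dimmer, so its direction depends on the probe set.

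Each of the 3 H3K36 methyltransferases measured was higher on the Mof null array on its brightest probe set. Whsc1, which dimethylates H3K36, read 8.59 on the Mof null array and 7.89 on the wild-type array (0.70), and its 4 expressed probe sets lay between 0.29 and 0.70. Nsd1, of the same family and activity, read 10.58 (Mof null) against 10.07 (wild type), a difference of 0.51. Its other expressed probe sets differed by 0.073 and -0.40, so the gene was not read in one direction. Setd2, which trimethylates H3K36 behind elongating RNA polymerase, read 9.73 on the Mof null array and 9.38 on the wild-type array (0.35). Dot1l, the H3K79 methyltransferase, read 8.75 (Mof null) against 8.31 (wild type), a difference of 0.44 on the brighter probe set and 8.02 (Mof null) against 8.10 (wild type), a difference of -0.074 on the other.

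The H4K20 methyltransferases differed among themselves. Setd8, which monomethylates H4K20 and is needed for cell division, read 10.68 on the Mof null array and 10.49 on the wild-type array, and both of its expressed probe sets differed by 0.19. Suv420h2, which makes the higher methylation states at heterochromatin, read 10.10 (Mof null) against 9.53 (wild type), a difference of 0.57. Its paralog Suv420h1 was lower on the brightest probe set, with 7.51 on the Mof null array and 7.94 on the wild-type array (-0.43). Of its 4 expressed probe sets 3 were negative, down to -0.66, and 1 was positive at 0.87. The mean over all its probe sets was 0.011, so no direction can be given for Suv420h1. The 17 methyltransferases together had a median of 0.35 and 12 positive differences.

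Among SET proteins with no settled histone substrate, Kmt2e was lower on every expressed probe set. Kmt2e resembles the MLL proteins, but its SET domain is thought to lack methyltransferase activity. It read 9.67 on the Mof null array and 10.25 on the wild-type array, a difference of -0.58, just inside 1.5-fold. The other 3 expressed probe sets differed by -0.33, -0.49 and -0.61. With Setd1b it was one of 2 genes whose several expressed probe sets were all negative. Setd3, an enzyme that methylates a histidine of actin, read 9.21 on the Mof null array and 9.15 on the wild-type array (0.061). Setd5, a chromatin protein linked to neurodevelopment, read 10.59 (Mof null) against 10.10 (wild type), a difference of 0.49, with differences of 0.16 and 1.32 on its other probe sets. The probe set at 1.32 read 7.36 on the Mof null array and 6.04 on the wild-type array, where it lay at the level filter.

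All 5 H3K4 demethylases were higher on the Mof null array on their brightest probe sets. Kdm1a, the amine oxidase LSD1 of the CoREST complex, read 12.33 on the Mof null array and 11.66 on the wild-type array (0.67). Its second probe set read 10.85 (Mof null) against 10.08 (wild type), a difference of 0.77. Kdm1b, its relative known from oocytes, read 8.08 (Mof null) against 7.84 (wild type), a difference of 0.24. The first of these amine oxidases thus exceeded the pooled spread between probe sets on both probe sets, and the second did not. That spread does not measure variation between cultures. Kdm5b, a JmjC enzyme of trimethylated H3K4 that is abundant in stem cells, read 12.01 on the Mof null array and 11.36 on the wild-type array (0.64). Its 3 expressed probe sets lay between 0.55 and 0.90. Kdm5a read 9.65 (Mof null) against 9.39 (wild type), a difference of 0.26, with its 3 expressed probe sets between 0.24 and 0.30, a tight range within the pooled spread. Kdm5c, the X-linked member, read 9.43 on the Mof null array and 9.20 on the wild-type array (0.24). Of its 8 expressed probe sets 4 were positive and 4 negative, from -0.39 to 1.05, so its direction depends on the probe set. The median of the H3K4 demethylases was 0.26, against 0.011 for the methyltransferases of the same residue and 0.60 for the subunits shared by those methyltransferases.

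The H3K9 demethylases held both the largest positive and the largest negative difference among the erasers. Kdm7a, which removes dimethyl marks of H3K9 and H3K27, read 8.59 on the Mof null array and 7.84 on the wild-type array (0.75, or 1.68-fold). Its other expressed probe set differed by 0.11. Phf2, of the same JmjC subfamily, was lower, with 7.73 on the Mof null array and 8.50 on the wild-type array (-0.76, or 1.70-fold). It had 1 expressed probe set. The mean difference over all its probe sets was -0.29, and their mean level lay under the level filter. On these arrays the median of the fibroblast markers was -1.96, against 0.10 over all expressed genes. The part of fibroblast RNA in the Phf2 difference was not tested. Phf8, the X-linked relative that also removes H4K20 monomethylation, read 8.89 (Mof null) against 8.70 (wild type), a difference of 0.19. Kdm3b, an enzyme of mono- and dimethylated H3K9, read 9.81 on the Mof null array and 9.20 on the wild-type array (0.61), and its second probe set differed by 0.73. Its paralog Kdm3a read 10.67 (Mof null) against 10.57 (wild type), a difference of 0.098, which turned negative on centring and on trend correction.

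Kdm4 enzymes, which remove trimethyl marks of H3K9 and H3K36, ranged from slightly lower to higher. Kdm4c read 9.63 on the Mof null array and 9.13 on the wild-type array (0.50). Kdm4a read 8.44 (Mof null) against 8.63 (wild type), a difference of -0.19, and Kdm4b read 7.07 (Mof null) against 7.05 (wild type), a difference of 0.021. The last turned negative on centring and on trend correction. Kdm3a, Kdm4b and Kdm4c are known targets of the hypoxia-inducible factors, and their values can be set beside those of hypoxia-induced genes. Of 15 expressed hypoxia-induced genes 6 passed 2-fold on the higher side and 0 on the lower side. Among all expressed genes 5.09% passed it on the higher side and 11.9% on the lower side. Of the 6 hypoxia-induced genes, Bnip3 was at 2.17, Aldoc at 2.11, Egln3 at 2.098, Slc2a1 at 1.34 and Pdk1 at 1.30. The sixth was Ankrd37, which read 7.67 on the Mof null array and 4.91, under the level filter, on the wild-type array, so that it passed only through the array where it is high. The list median was 0.66. The other 9, within 2-fold by this division, lay between -0.65 for Adm and 0.66 for Higd1a. The 3 demethylases were at 0.098, 0.021 and 0.50. Most expressed genes also lie in that range, with quartiles of -0.37 and 0.45, so it does not link the demethylases to the list. A part of hypoxia in their values was not tested. The hypoxia response core, ACGTG or GCGTG on either strand, was in 1 of the 3 windows of Kdm3a and 1 of the 2 windows of Kdm4c. Kdm4b had no window in the RefSeq table. The core was in 62.8% of the 43 windows of the whole set and in 61.6% of the windows of expressed genes.

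Kdm2a and the H3K27 demethylases complete the set. Kdm2a, a CXXC protein that removes H3K36 dimethylation at CpG islands, read 8.92 on the Mof null array and 9.03 on the wild-type array (-0.11). Its other expressed probe sets differed by -0.18 and 0.24, and the mean over all its probe sets, itself under the level filter, was 0.056, so no direction can be given. Kdm6a, the X-linked gene of UTX, which sits in the Kmt2c and Kmt2d complexes, read 9.78 (Mof null) against 9.29 (wild type), a difference of 0.50. Its other expressed probe sets differed by 0.16 and -0.43, so the gene was not read in one direction. Kdm6b, the inducible enzyme JMJD3, read 10.15 on the Mof null array and 9.97 on the wild-type array (0.18) on a probe set that can match several genes, and 10.07 (Mof null) against 9.68 (wild type), a difference of 0.39 on another. The 16 demethylases had a median of 0.24 and 13 positive differences.

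The 3 X-linked demethylase genes can be set beside sex chromosome genes. Kdm5d, the Y-linked paralog of Kdm5c, read 8.69 (Mof null) against 8.44 (wild type). Uty, the Y-linked paralog of Kdm6a, read 7.48 (Mof null) against 7.71 (wild type). The Y-linked gene Eif2s3y read 9.85 (Mof null) against 9.70 (wild type), and Xist, the RNA of the inactive X chromosome, read 8.74 (Mof null) against 8.31 (wild type). Of 6 expressed sex chromosome genes none was past 1.5-fold, with differences from -0.24 to 0.43. Transcripts of Y-linked genes were thus above the level filter on both arrays, in cultures that had been kept on feeders.

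Agreement between probe sets was uneven. Of the 25 genes with several expressed probe sets, 18 had all of them on one side, 16 higher and 2 lower, and 7 had both signs. The same count was not made over all genes, so whether this is particular to the set is unknown. Of the 88 expressed probe sets, 5 (5.68%) were past 2-fold in either direction, against 15.6% of 20935 expressed probe sets of all genes. These were 2 of Suv39h2 and 1 each of Setd5, Kdm5c and Setd7. Of the 88, 4 were above the level filter on 1 array only, among them the Kdm5c probe set past 2-fold, which read 6.57 on the Mof null array and 5.52 on the wild-type array. The difference of 25 of the 41 genes was larger than the pooled spread of 0.33. By the brightest probe set it was higher for 21 and lower for 4, namely Setd7, Phf2, Kmt2e and Suv420h1. Suv420h1, and among the 21 also Nsd1, Dot1l and Kdm6a, had expressed probe sets of both signs. The median absolute difference was 0.43 over the 41 genes and 0.42 over all expressed genes. Most expressed genes thus also exceeded that spread, and the count does not set these genes apart.

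Other genes of the same pathway, were chosen by name for their role. Of 17 expressed further lysine methyltransferases 14 were positive, with a median of 0.46. Prdm14, a pluripotency regulator, was at 0.94 and Ezh2, the H3K27 methyltransferase of Polycomb complex 2, at 0.87. The one past 2-fold was Mecom, which read 5.10 on the Mof null array and 7.15 on the wild-type array. It lay under the level filter on the Mof null array and passed only through the wild-type array. Of 10 further demethylases and JmjC proteins 9 were positive, none was past 2-fold, and the median was 0.23. Jarid2, a JmjC protein without demethylase activity, had the largest difference there, at 0.70. Of 22 partners of the MLL, Dot1l and Kdm1a complexes 13 (59.1%) were positive and 9 negative, close to the share over all expressed genes. None of these partners was past 2-fold, and their median was 0.17. They ran from -0.87 for Rcor3 to 0.79 for Psip1, and the CoREST genes Rcor1 and Rcor2 were at -0.057 and 0.63.

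**Figure D4:**
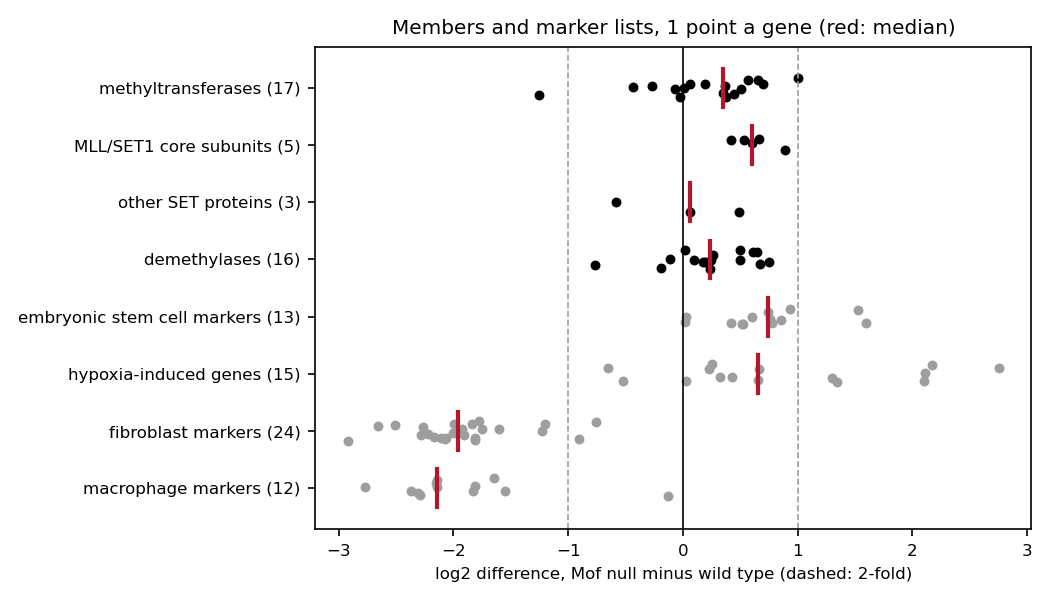
Log2 differences (Mof null minus wild type) with 1 point per expressed gene and the median in red, for 4 classes of the described genes (black) and 4 marker lists (grey). The medians of the 4 classes, 0.35, 0.60, 0.061 and 0.24, lie below the stem cell marker median of 0.74 and above the fibroblast and macrophage medians of -1.96 and -2.14.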

How the data were processed

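The deposited table, made by the authors, holds log2 values of 45101 probe sets on 2 arrays. The submitters' processing notes name RMA, the affy package and R 2.10.0. Its quantile step gives both arrays nearly one distribution. A shift of most transcripts in one direction is thereby hidden, and low values are compressed. Names came from the platform annotation supplied for the probe sets, and the 34945 with 1 symbol and 1 Entrez ID were used. The level filter was the median (percentile 50) of all values. No test was possible with 1 array a genotype, and genes were counted at 2-fold and 1.5-fold. Alternatives were the mean of probe sets, no _s_at or _x_at probe sets, no filter, percentile 75, centring, a lowess correction (span 0.3) and quantile normalization. Scaling to the stem cell marker median was added with the data in view. Genes and lists were chosen with earlier results of these data known. Every gene of the set is named. Of the further pathway genes and the hypoxia-induced genes, those past 2-fold are named. Of the cell type markers only some are named, and some genes were chosen after their values were seen. Counting was tested on simulated data. Tools were Python 3.11.15 with matplotlib 3.10.9, statsmodels 0.14.6, pandas 2.3.3 and numpy 2.4.6.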

Additional observations from a re-analysis of the deposited data

How the results depend on the processing

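Apart from the added scaling, 30 of the 41 genes had a value of one sign under every alternative, and 8 changed sign, namely Ehmt2, Kdm3a, Kdm4b, Kmt2a, Kmt2d, Setd1a, Setd3 and Suv420h1. Kdm2a and Phf2 had no value with the mean of probe sets and Kdm1b none at percentile 75, since they fell under the filter. With the mean of all probe sets, which left 39 genes, those at least 2-fold higher and lower numbered 1 and 0, against 4.19% and 9.80% of all expressed genes, and those at least 1.5-fold higher and lower 6 and 0, against 15.3% and 16.6%. Quantile normalization gave 1 gene at least 2-fold higher, against 5.67% of all. Centring and trend correction each gave 4 genes (9.76%) at least 1.5-fold higher, under the 13.0% and 13.3% of all expressed genes. Probe sets past 2-fold numbered 3 with centring and 1 under the filter at percentile 75, against 5 of 88 in the main setting. The stricter filter keeps fewer probe sets. The share over all expressed probe sets was counted in the main setting only (15.6%), so the other counts have no share beside them. Relative to the stem cell markers, chosen after seeing the data, which subtracts 0.74 from every gene, 5 genes (12.2%) passed 2-fold on the lower side, against 29.4% of all, 14 (34.1%) passed 1.5-fold on that side, against 53.9%, and 0 passed it on the higher side, against 1.70%. In that scaling 14 probe sets were past 2-fold, again without a share over all expressed probe sets. The median of all genes described and that of the methyltransferases were both -0.39, and that of the demethylases was -0.50. These changes follow from the subtraction, and so do those with centring, which subtracts a median from every value. The lower count of probe sets at percentile 75 follows from the filter, which removes probe sets and leaves the differences of the others unchanged. Setd7 and Suv39h2 crossed 2-fold with the choice of probe set, and Suv39h2 also with quantile normalization (1.07). The cause of the remaining changes was not tested. No paired analysis was possible because there was 1 array per genotype, and leaving out an array was not possible for the same reason. Low signal limits probe sets near the filter, where differences are compressed.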
